A study of Mus musculus with 4 samples.

Results

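The aminoacyl-tRNA synthetase genes were examined in a list of H3K9ac regions (histone H3 acetylated at lysine 9, a mark found at active promoters). By the region names, H3K9ac was called different there between cells kept in 2 amounts of choline. The members are 36 named genes, 20 for enzymes of the cytosol and 16 for enzymes of mitochondria, among 21938 protein-coding genes. A member counts as marked when a region of the list overlaps the 1000 bp either side of any of its transcript starts in the GENCODE M21 annotation. The 36 genes carried 56 of the 45855 regions at their starts.

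The cells were HT22, an immortalised mouse hippocampal line, kept for 48 h in medium holding choline chloride at either 5 µM, the control, or 70 µM, the supplemented level. All cells shared the same high-glucose medium with serum and antibiotics, and the labels name no altered gene. The series holds 2 input libraries and 2 H3K9ac ChIP libraries, and the labels do not tie a library to a choline level. If both levels had a ChIP library, each had no more than 1. The file gives 1 position and 1 score per region and no value per library, so no spread between cultures could be computed, no test between choline levels was possible, and the depth is unknown.

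The regions are named as a comparison of 5 against 70, whereas the title of the list names input against H3K9ac. The region names are followed here, with the 5 µM medium as condition 1 and the 70 µM medium as condition 2. Every direction below depends on this choice, and so does taking the regions as differences between choline levels. Whether the title or the region names describe the comparison was not tested. Since regions common to both conditions are left out, acetylation at an unmarked gene may be present and alike at the 2 levels. Regions assigned to 70 µM numbered 45495 (99.2%), and 360 were assigned to 5 µM. Of 10 neuronal marker genes, 1 was marked (Rbfox3, at 19.01 in the scores of the authors' deposited table, a value that 2552 regions share), as were 4 of 4 fibroblast markers, 2 of 4 astrocyte markers and 1 of 4 each for oligodendrocytes and microglia, against 39.5% of all coding genes; 1 fibroblast marker also had a 5 µM region. The fibroblast markers were Col1a1, Col1a2, Col3a1 and Thy1, and Thy1 is also a marker of neurons. A list of differences cannot show whether a marker is active in both conditions.

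Aminoacyl-tRNA synthetases join each amino acid to its transfer RNA, the step that sets the reading of the genetic code. The cytosol and the mitochondrion use separate enzymes for most amino acids, all encoded in the nucleus, and the mitochondrial ones serve the few proteins made inside that organelle. Several cytosolic enzymes sit together in a multisynthetase complex. When charged tRNA runs short, the kinase GCN2 (Eif2ak4) raises translation of the transcription factor ATF4, which is known to act on several cytosolic synthetase genes through a site called CARE.

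The base sequences that bear on this are shown first. The CARE motif was searched as TGATGNAA on both strands of the RefSeq promoters (build GRCm38.p6, 250 bases before to 50 after a start), of which 27 of 36 members had an entry. It was present in 5 of 13 cytosolic promoters and in 0 of 14 mitochondrial promoters, against 3.6% of the promoters of all coding genes and 3.97% of all 32851 promoters in the table. For each of these 5 genes the match nearest the RefSeq start is given 5′ to 3′ on the gene's strand with 11 bases either side, and capitals mark the motif, which in 4 of the 5 reads as the reverse complement.
Aars: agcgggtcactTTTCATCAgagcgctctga
Gars: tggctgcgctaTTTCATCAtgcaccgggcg
Iars: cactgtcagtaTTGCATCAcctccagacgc
Tars: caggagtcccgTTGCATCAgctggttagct
Yars: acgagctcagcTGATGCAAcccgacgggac
Counted from the RefSeq start, the first motif base lay at 9 in Aars, at -30 in Gars, at 7 in Iars, at -15 in Tars and at 3 in Yars. The stretches shown are chr8:111033840-111033869 for Aars, chr6:55037960-55037989 for Gars, chr13:49682126-49682155 for Iars and chr4:129189895-129189924 for Yars, all on the plus strand, and chr15:11399655-11399684 on the minus strand for Tars. The match was inside a 70 µM region in Gars (score 8.06) and Iars (4.83) by the authors' deposited table. It was 170 bp from the nearest region in Tars, 429 bp in Aars and 1529 bp in Yars, which is unmarked. A match of letters is a description of the sequence and does not show that ATF4 was bound. None of the 5 overlapped a match of the other motifs searched.

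Other motifs of promoters were counted in the same way. The ETS motif CCGGAAG was in 5 of 13 cytosolic and 4 of 14 mitochondrial promoters (33.3% of the members with an entry, against 11.6% for all coding genes). The CCAAT motif was in 7 and 6 of them (48.1% against 38.2%). The E-box CACGTG, to which factors such as Myc and USF bind, was in 4 cytosolic promoters (Aars, Farsb, Iars and Tars) and in that of Ears2 (18.5% against 7.84%). The palindromic NRF1 motif was in 0 of 27, against 1.33% of all coding genes. Cars, Hars, Lars, Nars, Rars, Vars, Wars, Hars2 and Pars2 had no entry.

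Of the 36 synthetase genes, 30 were marked (83.3%, exact 95% interval 67.2 to 93.6), where 39.5% of all protein-coding genes were. The interval covers counting over genes only. All 30 were marked by 70 µM regions and 0 by a 5 µM region. A 5 µM region was at the starts of 0.88% of all genes, a rate that would give 0.317 genes among 36. By the rule of 3, a count of 0 allows up to 8.33% of the members (3 counts). This is an approximate 1-sided 95% limit and not the exact interval used for the shares. Hars and Hars2 shared both of their regions. With 2 or more regions there were 18 of 36 members, against 18.1% of all genes.

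The members were also above the background under other ways of counting. Windows of 2500 bp marked 32 of 36 (18 cytosolic and 14 mitochondrial), against 46.5% of all genes. The midpoint of the region in place of any overlap marked 30, against 38.6%, and 70 µM regions alone marked 30, against 39.2%. Without chromosome 18, which holds Hars, Hars2, Lars and Nars, 26 of 32 were marked, against 39.6%. Principal starts alone, which are the starts of transcripts that GENCODE tags as principal isoforms, marked 28 (77.8%), against 34.4%.

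Synthetase genes also had more annotated starts than coding genes at large, a median of 6 against 3, and more CpG sites within 500 bp of the principal start, a median of 55.5 against 43. Among coding genes with at least 6 annotated starts 65.3% were marked, and among those members 18 of 22. Among coding genes with at least as many CpG sites as the median member 62.4% were marked, and 14 of 18 members. Where both medians were reached, 73.3% of 3483 coding genes were marked and 8 of 11 members (72.7%). The gap between members and other genes was smaller in each of these groups, and in the last the members' share was the lower by less than 1 gene. The part of start number and CpG content in the result was not tested.

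**Figure D1:**
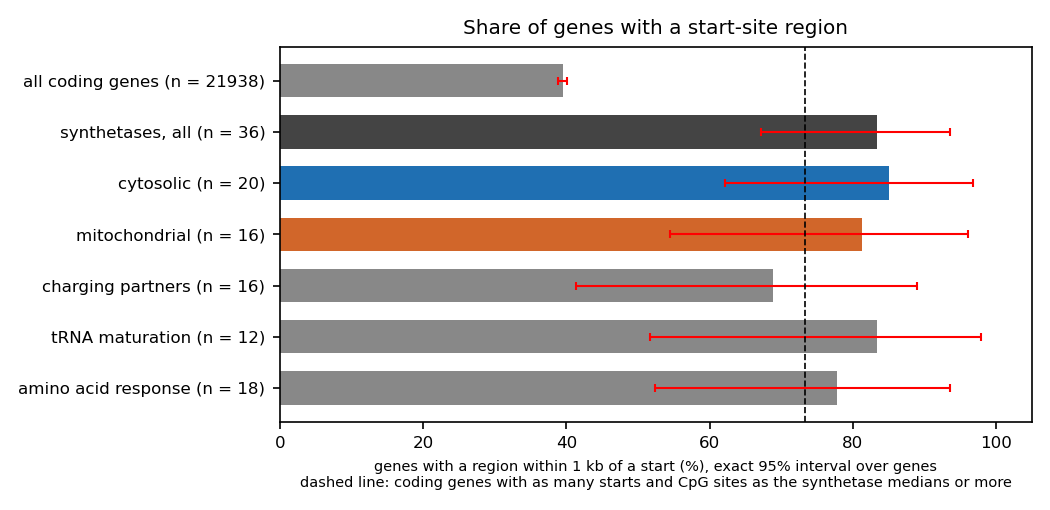
Share of genes with a region of the list within 1 kb of a start (horizontal axis, percent) for all protein-coding genes, the synthetase genes and their classes, and 3 related lists; red bars are exact 95% intervals over genes. The dashed line stands at 73.3%, the share among coding genes that reach the synthetase medians of annotated starts and CpG sites. It lies inside the intervals of all 6 gene lists. The line was not matched to the genes of any list, and only 11 of the 36 synthetase genes reach both medians.

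The comparison of the compartments showed similar shares with wide intervals. Of 20 cytosolic genes 17 were marked (85.0%, exact 95% interval 62.1 to 96.8) and of 16 mitochondrial genes 13 (81.2%, 54.4 to 96.0), each against 39.5% of all genes. The difference was 3.75 percentage points with a Newcombe 95% interval from -20.6 to 29.9 over genes, so neither equality nor a difference of that size is shown. With windows of 500 bp 27 of 36 members were marked (75.0%), against 32.5% of all genes; the cytosolic count was again 17 and the mitochondrial count 10 (62.5%), a difference of 22.5 points (interval -5.86 to 48.3). The median score of the strongest start-site region was 5.61 for marked cytosolic genes and 6.30 for marked mitochondrial genes, with 5.68 for all marked genes; without chromosome 18 the order turned, with 6.61 and 6.40.

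The number of regions around the main promoter was then compared. Within 1 kb of a principal start, 10 of 20 cytosolic genes had 2 or more regions and 3 of 16 mitochondrial genes did, against 12.3% of all genes. These 10 are Aars, Cars, Dars, Farsb, Gars, Hars, Iars, Kars, Nars and Qars, and the 3 are Hars2, Mars2 and Vars2. This count was chosen after its values were seen and was not tested. The median number of regions over all starts was 2 per marked cytosolic gene and 1 per marked mitochondrial gene, with start-site windows of a median 7785 bp and 4707 bp in all.

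**Figure D2:**
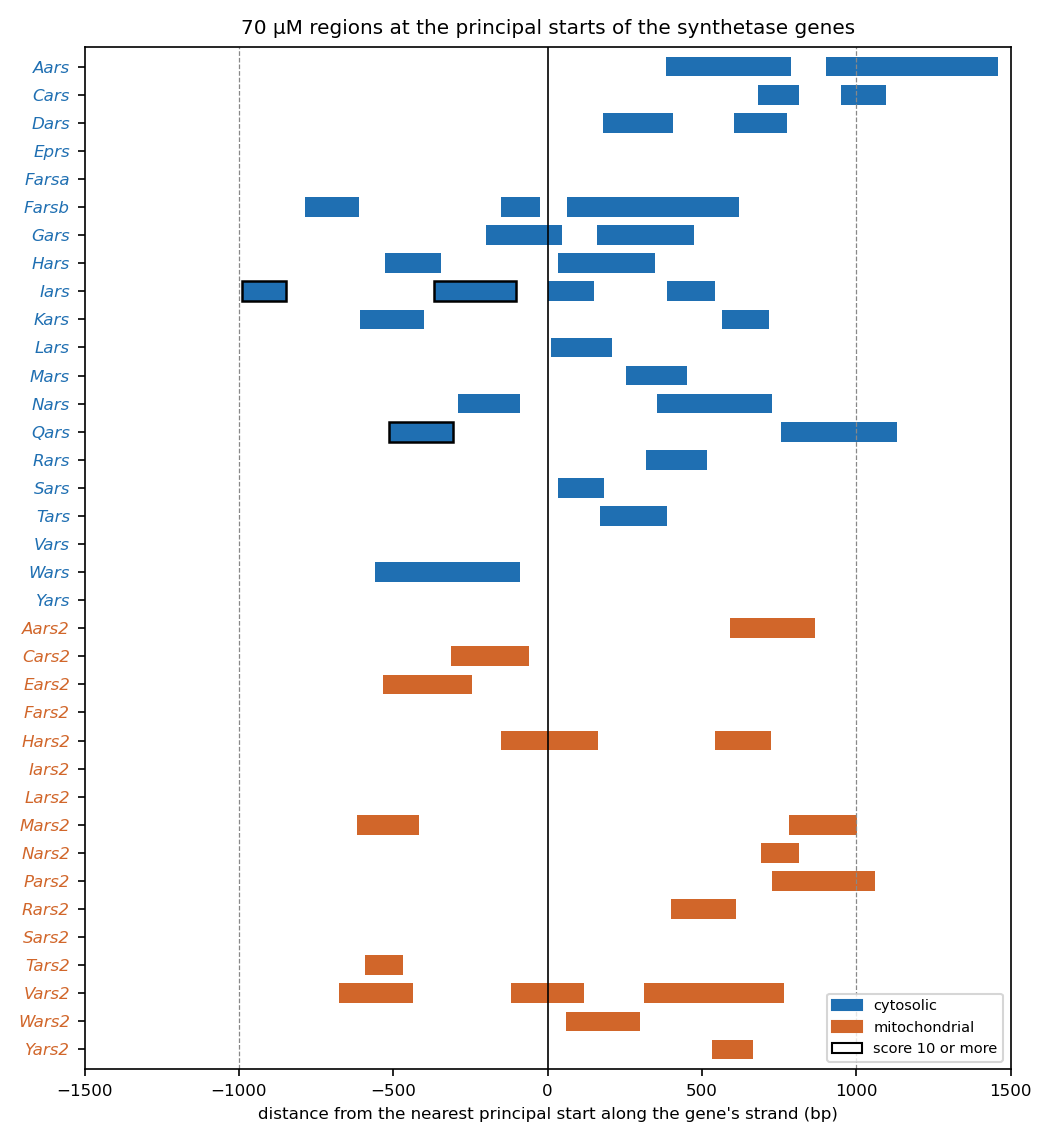
Regions within 1 kb of a principal start of each synthetase gene (rows), drawn as bars to scale by distance along the gene's strand (horizontal axis, bp; 0 is the nearest principal start, dashed lines are 1000 bp away); blue is cytosolic, orange mitochondrial, and a black outline marks a score of 10 or more. Of the 45 bars, 29 are centred after the start, 15 before it and 1 on it; Iars and Qars hold the outlined bars.

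Around the principal starts the regions lay mostly beside the start and seldom on it, as they did over all genes. Of 45 pairs of a member and a region there, 29 (64.4%) had their midpoint after the start, at a median of 539 bp, 15 before it, at a median of -410 bp, and 1 on it; over all genes 64.1% lay after the start. Regions covering the start were 3 of 45 (6.67%, against 10.3% for all genes), at Gars, Hars2 and Vars2. The median score there was 5.09 in the authors' deposited table, with 4.81 for all genes. Both were below 6.64, the median over all regions of the list. The members' regions at principal starts held a median of 3.2 CpG sites per 100 bp, against 4.02 for all genes.

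Among the enzymes of the multisynthetase complex 7 of 8 genes were marked, with Eprs as the exception. Outside it 10 of 12 cytosolic genes were marked. Of all coding genes 39.5% were marked, and of those that reach both synthetase medians, of starts and of CpG sites, 73.3%. Only 11 of the 36 members reach both medians, so the 73.3% is not a matched background for either group. The median strongest score was 7.62 in the complex and 5.39 outside it, with 5.68 for all marked genes. Rars, the arginyl-tRNA synthetase gene, had 3 regions, with scores of 21.60, 6.31 and 5.33 in the authors' deposited table. By structural class, 16 of 18 class I genes and 14 of 17 class II genes were marked, against the same 39.5%, with median strongest scores of 6.40 and 5.80 beside the same 5.68; Eprs, which joins both classes, is left out of these counts. The lowest strongest score in the complex was at Mars, for methionine, with 1 region scored 4.33, 353 bp after its principal start. Lars, for leucine, had 1 region (4.84) 111 bp after it.

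Iars, the isoleucyl-tRNA synthetase gene (chromosome 13, 49682100 to 49734267, plus strand), carried the most regions of the cytosolic class. Around its principal starts stood 4 regions, which had in the authors' deposited table scores of 12.37 at -918 bp, 21.24 at -235 bp, 4.83 at 76 bp and 3.82 at 464 bp from the nearest of them. The score thus was highest before the start and lowest after it. The remaining region, at 49706179 to 49706362 in an intron, scored 13.73 and lay near the start of the retained-intron transcript Iars-204. Iars2, its mitochondrial counterpart, was unmarked.

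Qars, for glutamine, had a region at -410 bp from its start and another 945 bp after it, scored 11.22 and 5.09 in the authors' deposited table. Kars, for lysine, and Dars, for aspartate, had 2 regions each, the strongest at 7.62 and 5.61. Kars and Gars each give the cytosolic and the mitochondrial form of their enzyme from 1 gene. In Gars, for glycine, the region at chr6:55037809-55038054 covered the start and the CARE match with 8.06 in the authors' deposited table. It held 29 CpG sites, 11.8 per 100 bp. The Gars region that followed, 318 bp after the start, scored 4.54.

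Outside the complex Aars, for alanine, had 2 broad regions of 403 and 557 bp that followed its principal start, with scores of 5.24 and 4.35 in the authors' deposited table, and a region of 11.38 in a coding exon 8855 bp after it. Farsb, the beta subunit of the phenylalanyl enzyme, had 3 regions with a strongest score of 7.93 and a width of 558 bp there. Its partner Farsa, the alpha subunit, was unmarked and had no region inside the gene. Of the other cytosolic genes, Cars (cysteine), Hars (histidine), Nars (asparagine), Sars (serine), Tars (threonine) and Wars (tryptophan) had strongest scores between 3.83 and 6.0. Vars, for valine, had its 2 regions, at 3.57 and 3.79, only at internal starts 3175 and 13963 bp from the principal start.

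In the mitochondrial class the strongest scores ran from 3.29 at Nars2, for asparagine, to 25.05 at Lars2, for leucine, in the authors' deposited table. Vars2, for valine, had 5 regions, of which 3 surrounded its principal start (scores of 6.17, 4.91 and 4.97) and 2 were in coding exons further in (11.43 and 7.17). Its region of 4.97 also lay within 1 kb of a start of Gtf2h4. Tars2, for threonine, had 3, with 13.07 the highest. Mars2, the methionyl enzyme gene, had a region scored 5.81 at -517 bp from its start and one scored 6.30 at 891 bp. Ears2, which charges the mitochondrial glutamate tRNA and, in mammals, also the glutamine tRNA, had 1 region of 7.84 that was rich in CpG, at 12.2 sites per 100 bp. Aars2, Cars2, Pars2, Rars2, Wars2 and Yars2 had strongest scores between 4.23 and 6.87.

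For 17 pairings of a cytosolic gene or subunit with the mitochondrial gene of the same amino acid, both were marked in 10, 1 of them in 6 and neither in 1. Eprs and Fars2, both unmarked, each enter more than 1 of these pairings, so the pairings are not independent. Among the 10, the mitochondrial gene had the higher score in 6, the cytosolic in 3 and both the same in 1, the last being Hars and Hars2. The widest gaps were at leucine, with 4.84 at Lars and 25.05 at Lars2, and at arginine, with 21.60 at Rars and 6.51 at Rars2. Both of these top scores lay away from the principal start, and that of Rars lay near the edge of the window.

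**Figure D3:**
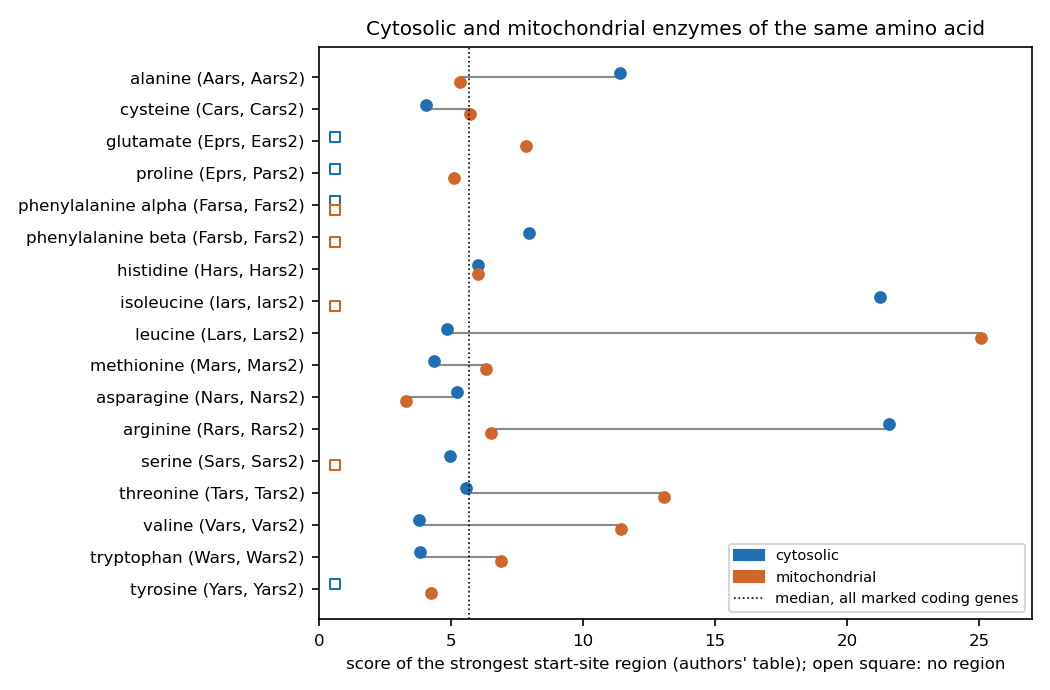
Score of the strongest start-site region in the authors' table (horizontal axis) for the cytosolic (blue) and mitochondrial (orange) enzyme gene of each amino acid; open squares stand for genes with no start-site region and the dotted line for the median of all marked coding genes (5.68). Most filled points lie between 3.29 and 7.93, and Rars, Iars and Lars2 lie above 20.

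Hars and Hars2 run in opposite directions on chromosome 18 with overlapping 5′ ends, the principal start of Hars at 36783205 and that of Hars2 at 36783008, and a further annotated start of Hars2 lies 26 bp before that of Hars. The 2 regions at 36782858 to 36783171 and 36783552 to 36783731 (scores of 6.0 and 4.41 in the authors' deposited table) serve as the start-site regions of both. They are 2 members but 1 measurement. In all 8 of 36 members (22.2%) had an oppositely directed coding gene starting within 1 kb before a principal start, against 9.46% of all coding genes; Hars is among the 8, through that further start, and Hars2 is not. Of these 8, 5 were marked (62.5%), and of all genes so arranged 73.0% were. Kars shared 2 regions with Terf2ip, and Wars with Wdr25, Ears2 with Ubfd1 and Rars2 with Orc3 shared 1 each, so these regions cannot be assigned to 1 gene of the pair.

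The 6 unmarked genes were Eprs, Farsa, Yars, Fars2, Iars2 and Sars2, 3 in each class. Eprs, whose product charges both glutamate and proline tRNA, Farsa and Sars2 also had no region inside the gene. Yars, for tyrosine, stood head to head with S100pbp, which had 0 regions at its starts, and the nearest region to a Yars start was 1383 bp away, scored 14.21 in the authors' deposited table. Fars2 paired with Lyrm4, also with 0 regions, and Sars2 with Mrps12, which had 2 regions, 0 of them shared. The nearest region was 1862 bp from Sars2 and 2870 bp from Iars2. Eprs and Iars2 are neighbours on chromosome 1 and share as nearest the region at 185332266 to 185332407, 30637 bp from Eprs. Within 500 bp of the principal start Eprs had 96 CpG sites, Farsa 45, Yars 79, Fars2 78, Iars2 68 and Sars2 48. The median over all members was 55.5, and the marked members ranged from 15 to 106.

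Just inside the window of 1000 bp stood regions at Iars, Rars and Aars with edges 848, 857 and 887 bp from the nearest start. Just outside were regions at Mars2 (1073 bp, score 5.18) and near Hars2 and Hars (1077 and 1189 bp, score 7.77) in the authors' deposited table. All of these genes were marked by other regions too. The edge does bear on the score of Rars: without its region at 857 bp the strongest would be 6.31, close to the 6.51 of Rars2, in place of 21.60.

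Of the 9 pairs with a score of 10 or more, 6 lay away from the principal starts. Of the 45 pairs at a principal start 3 had such a score (6.67%), all cytosolic, against 7.93% for all genes. Of the 13 pairs at other annotated starts 6 did (46.2%), against 30.5% for all genes. The median scores were 5.09 and 7.17, with 4.81 and 5.90 for all genes. For 9 of the 13 the nearest start belonged to a retained-intron transcript. These 13 pairs belong to 9 genes, of which Vars and Lars2 had no region at the principal start.

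**Figure D4:**
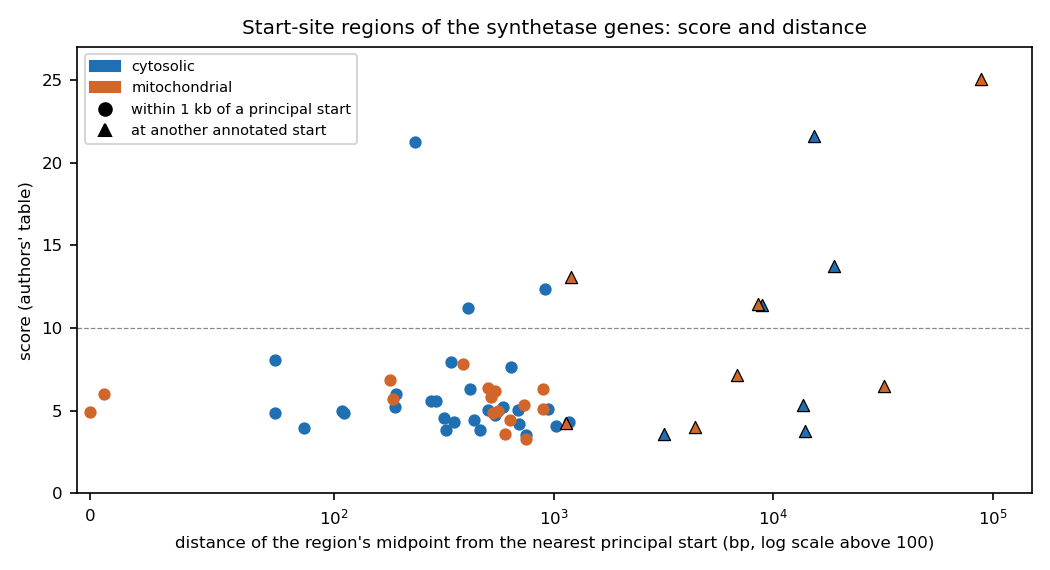
Score in the authors' table (vertical axis) of each start-site region against the distance of its midpoint from the nearest principal start (horizontal axis, bp, logarithmic above 100); circles are regions within 1 kb of a principal start and triangles those at other annotated starts. Of the circles 3 and of the triangles 6 lie at or above the dashed line at a score of 10.

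The strongest regions of each class are shown because they carry these scores; each is given 5′ to 3′ on the gene's strand from the GRCm38.p6 sequence, and capitals mark CpG sites. Rars has chr11:35819071-35819252, in an intron on the minus strand, 15345 bp after the principal start. Iars has chr13:49681733-49681998, before its first start on the plus strand. Lars2 has chr9:123454533-123454735, in an exon of the retained-intron transcript Lars2-202 on the plus strand, 87707 bp after the principal start. Tars2 has chr3:95753547-95753799, in an intron on the minus strand, 1198 bp after it.
Rars: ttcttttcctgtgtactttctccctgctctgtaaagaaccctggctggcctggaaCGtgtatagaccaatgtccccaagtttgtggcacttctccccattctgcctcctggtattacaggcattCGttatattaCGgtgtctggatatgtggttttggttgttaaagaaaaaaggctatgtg
Iars: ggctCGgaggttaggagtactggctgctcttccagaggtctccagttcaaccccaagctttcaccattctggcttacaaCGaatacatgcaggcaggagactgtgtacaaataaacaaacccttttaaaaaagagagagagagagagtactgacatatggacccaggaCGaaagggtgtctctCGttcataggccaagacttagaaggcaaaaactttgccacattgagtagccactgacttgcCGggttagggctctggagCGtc
Lars2: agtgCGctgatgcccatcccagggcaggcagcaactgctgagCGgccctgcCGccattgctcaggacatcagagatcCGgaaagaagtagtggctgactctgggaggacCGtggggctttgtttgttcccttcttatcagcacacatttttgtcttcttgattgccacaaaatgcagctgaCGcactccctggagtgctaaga
Tars2: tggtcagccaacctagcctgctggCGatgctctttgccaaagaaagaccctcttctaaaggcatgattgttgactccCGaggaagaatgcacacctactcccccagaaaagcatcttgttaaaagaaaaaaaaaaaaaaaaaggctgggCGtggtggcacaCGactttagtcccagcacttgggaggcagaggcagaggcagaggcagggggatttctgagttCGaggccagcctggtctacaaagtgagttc
These regions hold 3, 6, 6 and 5 CpG sites in that order, and the Gars region at its start held 29. Per 100 bp the Rars, Lars2 and Tars2 regions have 1.65, 2.96 and 1.98, beside a median of 1.6 for such regions away from principal starts in all genes, and the Iars region has 2.26, beside 4.02 at principal starts. The Aars region scored 11.38, which is not shown, has 15 CpG sites, 5.17 per 100 bp, and 0.0% repeat bases. Bases soft-masked as repeats in the RefSeq genome made up 14.3% of the Rars region, 35.3% of that of Iars, 10.3% of that of Lars2 and 55.7% of that of Tars2. All 32-base words of the Rars and Lars2 regions and 99.6% of those of Iars occur once on chromosomes 1 to 19, X and Y, but only 64.9% of those of Tars2 do, so reads from the rest of that region could also come from other copies. Over the members, 8 of 9 pairs with a score of 10 or more held repeat-masked bases (88.9%), against 22 of 49 with lower scores (44.9%). Any masked base counts here, and the share by score was not computed over all genes. By position the members' share with such bases was 46.7% at principal starts and 69.2% away from them, where 6 of the 9 lie; over all genes it was 48.1% and 53.4%. Whether repeats have a part in the scores was not tested.

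Inside the genes but outside the start windows lay 38 further regions in 19 of 36 members (52.8%, against 36.6% of all genes), all at 70 µM. By midpoint 28 were in introns, 5 in coding exons and 5 in UTR exons. Their median score was 6.25 in the authors' deposited table, against 8.49 for such regions in all genes, and 14 of 38 had a score of 10 or more (36.8% against 44.8%). They were in 13 of 20 cytosolic and 6 of 16 mitochondrial genes. The highest were in introns of Cars (25.91), Fars2 (21.73 and 20.29) and Yars (21.49), so that 3 of the 6 unmarked genes, Yars, Fars2 and Iars2, had regions within the gene. Aars and Sars held the most, 5 each. The Iars2 and Lars regions at 19.01 carry the score that Rbfox3 shares.

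The genes that work beside the synthetases were marked in most cases too, each count again against 39.5% of all genes. Of 16 tRNA charging partners 11 were marked (68.8%, exact 95% interval 41.3 to 89.0). With regions at or above the list's median score of 6.64 alone, 3 of the 16 were marked (18.8%), close to the 14.6% of all genes. By the authors' deposited table the top regions were those of Gatc (16.25) and Gatb (6.58), 2 subunits of the mitochondrial amidotransferase that turns glutamate on the glutamine tRNA into glutamine, of the elongation factor gene Eef1a1 (12.25), which carries charged tRNA to the ribosome, and of Dtd2 (6.98), a deacylase gene for mischarged tRNA. The 5 unmarked genes were Dtd1, Mtfmt, Ptrh2, Tufm and Eef1e1, the last encoding a scaffold protein of the multisynthetase complex.

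Of 12 tRNA maturation genes 10 were marked (83.3%, exact 95% interval 51.6 to 97.9). The authors' deposited table scored highest Tsen54 (13.98), a subunit of the tRNA splicing endonuclease, Pus1 (8.76), a pseudouridine synthase gene, Gtpbp3 (5.67) and Trmu (5.18), both for the modification of mitochondrial tRNA. Elac1 and Mto1 were unmarked. With windows of 500 bp 6 of the 12 were marked, against 32.5% of all genes. With regions at or above the list's median score alone, 2 of the 12 were marked (16.7%), close to the 14.6% of all genes.

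Of 18 genes of the amino acid response 14 were marked (77.8%, exact 95% interval 52.4 to 93.6). With regions at or above the list's median score alone, 5 of the 18 were marked (27.8%), against 14.6% of all genes. The list holds the sensor kinase Eif2ak4 (5.73), a further kinase gene, Eif2ak3, ATF4 itself and genes that ATF4 is known to act on. By the authors' deposited table the leading regions belonged to Cebpb (19.60), a transcription factor gene, to Shmt2 (10.76), a mitochondrial serine enzyme, to Slc7a11 (10.50), the cystine transporter gene, and to Eif2ak3 (9.26), which encodes the kinase PERK. The Cebpb region was assigned to 5 µM and was the sole 5 µM region at a start in these 3 lists; its other region, at 70 µM, scored 5.40. Atf3 and Atf4 were unmarked, as were Ddit3 and Sesn2. With the 5′-most start of each gene alone, 8 of the 18 were marked (44.4%), against 32.5% of all genes and 26 of 36 synthetase genes (72.2%).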

How the data were processed

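H3K9ac ChIP and input DNA of HT22 cells were sequenced in 4 libraries. Reads were mapped to mm10 with Bowtie 1.0.0 and different regions were called by MACS2 with its bdgdiff function, per the series' design text; CASAVA 1.8 is named in the submitters' processing notes. The deposited table gives each region a score, a column without a name that bdgdiff fills with a log10 likelihood ratio, and it was used only to describe and rank regions. No source used here says whether libraries were pooled.

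A gene was counted as marked when a region overlapped 1000 bp either side of any transcript start in GENCODE M21, and the counting was checked on simulated regions. Shares have exact (Clopper-Pearson) 95% intervals from scipy 1.17.1, which cover counting over genes only, and no p-value was computed. Sequences were read from RefSeq GRCm38.p6 with pysam 0.24.0.

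The members and all lists were chosen with earlier results of these data known. All 36 members are described, with the strongest regions shown for up to 3 genes of each class outside chromosome 18. In each related list the text names at most 4 marked genes, those of highest score, and at most 2 unmarked ones, taken alphabetically. Beyond these, Eif2ak4, Tarsl2, Mtfmt, Ptrh2, Tufm, Ddit3 and Sesn2 were named after their values were seen. Other windows, starts and score limits were tried as alternatives.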

Additional observations from a re-analysis of the deposited data

How the results depend on the processing

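The counts rest on 1 list with no replicate, no value per library and no known depth, and a gene without a region may carry H3K9ac at both choline levels alike. With regions at or above the median score alone, 12 of 36 synthetase genes were marked (33.3%, against 14.6% of all genes). They were 7 cytosolic and 5 mitochondrial genes, with median strongest scores of 11.22 and 11.43. Under this limit 5 of 18 amino acid response genes (27.8%), 3 of 16 charging partners (18.8%) and 2 of 12 tRNA maturation genes (16.7%) were marked. The shares of the last 2 lists were close to the 14.6% of all genes. Windows of 500 bp marked 6 tRNA maturation genes, and the 5′-most start alone marked 8 amino acid response genes. The synthetase count was 32 with windows of 2500 bp (46.5% of all genes), 26 with the 5′-most start, 30 by the midpoint of the region and 26 of 32 without chromosome 18. With principal starts alone, an alternative chosen after the data were seen, it was 28 (16 cytosolic and 12 mitochondrial, against 34.4% of all genes). Leaving out Gars and Kars, which serve both compartments, 15 of 18 cytosolic genes were marked. Of 75 values under alternatives, the 10 printed first moved by over 1.5 times. The difference between compartments, which was held only to its 95% interval of -20.6 to 29.9 points, ran from 2.08 to 22.5, the highest with windows of 500 bp. No paired analysis was possible because the file holds no value per library and the labels give no choline level for a library.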
